A study of Mus musculus with 4 samples.

Results

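The replication-dependent histone genes are the 69 features whose name starts with Hist1h, Hist2h, Hist3h or Hist4h, out of 40999 features in the mouse files. They were chosen by name alone, so no measured value decided which genes belong. The group itself was taken up with earlier results of these data known. By type they comprise 6 genes for the linker histone H1, 19 for H2A, 19 for H2B, 12 for H3 and 13 for H4. Gonads of C57BL/6J embryos with a mixed XX and XY genotype were pooled on 4 successive days of development, from E11.5 to E14.5, and each time point gave 1 library of total RNA. Per the study's methods, each pool combined gonads of both sexes from a pair of litters, and the E11.5 pool was the whole genital ridge, mesonephros included, whereas later pools were freed of the mesonephros. The question addressed here is how the levels of these genes moved across early gonad development.

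Replication-dependent histone genes encode the bulk of the histones that package newly copied DNA, and their mRNA accumulates in S phase and is degraded when replication ends. Most of these mRNAs carry no poly(A) tail. They end instead a few bases after a short stem-loop, which is bound by the stem-loop binding protein SLBP and guides cleavage with the help of the U7 snRNP. A library that captures total RNA can therefore read them, where a library selected on poly(A) would lose most of them. Some members also give spliced or polyadenylated mRNA in differentiating cells, and a few, among them Hist1h1t, Hist1h2aa and Hist1h2ba, are known as variants of the testis.

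The stem-loop is the sequence that the mature mRNA ends with, so it is shown first. In the GENCODE M21 transcripts of mouse, a perfect stem of 6 base pairs around a loop of 4 bases was found in 46 of 69 members. The transcripts of the other 23 members hold no such stretch, and for 14 of these every annotated transcript ends at the stop codon. Hist1h2aa (390 bases), Hist1h2ba (384 bases) and Hist1h1b are among the 14, so whether their mRNA has a stem-loop was not tested. One member of each type is shown with up to 5 bases on either side, the stem and loop in capitals, chosen as the most abundant member of its type with a stem-loop or, for H2B, as the member that fell furthest. Hist1h1t is added as the testis variant whose annotated transcript reaches the stem-loop.
Hist1h1c (H1): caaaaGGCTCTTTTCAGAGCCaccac
Hist1h2ap (H2A): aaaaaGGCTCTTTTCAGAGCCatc
Hist3h2ba (H2B): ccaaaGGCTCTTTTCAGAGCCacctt
Hist1h3e (H3): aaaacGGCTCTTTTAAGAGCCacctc
Hist1h4d (H4): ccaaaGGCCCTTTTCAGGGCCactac
Hist1h1t (H1): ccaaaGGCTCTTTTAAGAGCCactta
The left arm of the stem read GGCTCT in all 34 of the 34 H1, H2A, H2B and H3 members with a stem-loop. It read GGCCCT in 10 and GGTCCT in 2 of the 12 H4 members with one, so the arm separates H4 from the other types. The annotated transcript ends within 60 bases after the stem-loop in 22 members and runs 100 bases or more past it in 23. Where the files' gene model is as long, a count can include reads from RNA that was not cleaved at the stem-loop, and the deposited counts do not separate the forms.

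Promoters were read from RefSeq on build GRCm38.p6, from 250 bases before to 50 bases after each start, and 62 of 69 members had one. Motifs were searched on both strands. TATAAA stood in 56.5% of the 62 member promoters and in 13.6% of all 32851 RefSeq promoters of the same length. CCAAT stood in 85.5% of the members and 37.4% of all promoters. All promoters of H1, H2A, H2B and H3 members held it, against 3 of 12 H4 promoters. The octamer ATTTGCAT, the motif of Oct factors such as Oct1, stood in 13 of the 62 members, 7 H2A and 6 H2B promoters, and in 1.74% of all promoters. Promoters of neighbouring members on opposite strands can overlap, so 1 match can count for both genes, as the octamer of Hist1h2aa and Hist1h2ba does. AAACACA, known from H1 promoters, stood in 5 of 6 H1 promoters and in 9 of the 62 members, against 7.18% of all promoters.

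The members lie in clusters on 4 chromosomes (mm10 coordinates of the files). Chromosome 13 holds 55 of them, 23 between 21715763 and 22043610, 31 between 23531044 and 23934851 and 1 at 51200090 to 51203068. Another 10 lie on chromosome 3 between 96219916 and 96270192, 3 on chromosome 11 between 58948911 and 58956674, and Hist4h4 lies alone on chromosome 6 (136801553 to 136804431). A head-to-head arrangement with starts at most 1000 bases apart was found for 14 pairs of members, 13 of them an H2A beside an H2B gene and 1 an H2B beside an H3 gene. The starts of these pairs lay 168 to 700 bases apart (median 278). The octamer was found in the promoters of 6 of the 13 H2A and H2B pairs.

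Libraries held between 25593453 counts (E12.5) and 31752562 counts (E13.5). From the first to the last time point ribosomal RNA genes took 17.7%, 8.90%, 8.72% and 48.9% of the counts, so the E14.5 library stands apart. Levels between libraries are therefore given as scaled CPM, with each library total corrected by TMM over the 4 libraries. With 1 library per time point no difference has a replicate check, and the 95% intervals (exact Clopper-Pearson) cover counting error only. Calls rest on the fold alone. As an alternative, edgeR's exact test was run at a preset spread between replicates, which these data cannot estimate. In these bulk pools, fewer cells of a type and less RNA per cell cannot be told apart. Summed over the marker lists, scaled CPM ran over the 4 time points through 685, 1079, 985 and 852 for gonadal somatic cells, 13.7, 250.1, 328 and 269 for germ cells, 124, 24.4, 20.9 and 22.4 for the mesonephros and 1382, 3183, 3388 and 3262 for erythroid cells.

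All 69 members had counts in every library and all passed the filter of at least 10 counts in 1 or more libraries. The lowest count of a member was 8, for Hist1h2aa at E11.5. In the order of the time points, the members together held 240979, 204822, 213770 and 110531 counts. These were 0.771%, 0.800%, 0.673% and 0.351% of the library, and 1.02%, 0.951%, 0.794% and 0.838% once ribosomal RNA genes were set aside together with each library's 10 leading genes. The share was thus lowest at E14.5 over the whole library and lowest at E13.5 over the rest of it.

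Per length, the members spanned nearly 3 orders of magnitude, from a mean deposited TPM of 1.65 for Hist2h2aa1 to 1040 for Hist1h4d. TPM divides counts by the model length in the files, 312 bases for Hist1h4d and 2977 for Hist1h1d. Ranks and medians on this scale therefore depend on the models as well as on the counts. In 50 of 69 members the mean over the 4 libraries was at least 100 TPM. The median of the mean TPM was 207 for H1, 142 for H2A, 187 for H2B, 275 for H3 and 364 for H4 members. The lowest mean was 5.49 TPM among H1, 5.57 among H2B, 13.2 among H3 and 26.2 among H4 members. TPM fell at E14.5 for most members, in the library where ribosomal RNA took 48.9% of the counts.

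**Figure D1:**
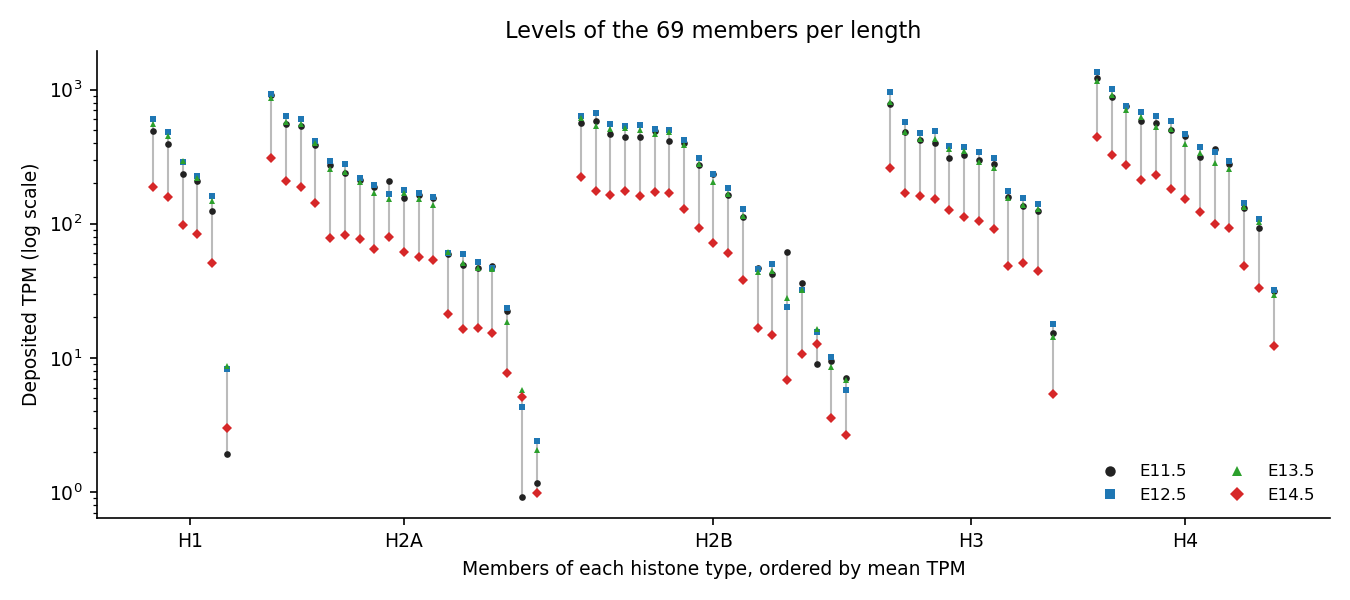
Deposited TPM (log scale) of the 69 members, grouped by histone type and ordered by mean TPM. Each column is 1 member and each symbol 1 library, joined by a line from the lowest to the highest. The lowest members sit near 1 to 10 TPM and the highest, Hist1h4d, at 1352 TPM at E12.5.

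Among the core histones, the H4 gene Hist1h4d had 1211, 1352, 1149 and 446 TPM over the 4 time points. Hist1h4m followed with 878, 1011, 913 and 325 TPM and Hist1h4k with 749, 760.5, 709 and 274 TPM. These 3 genes were the most abundant of the H4 members, and each peaked at E12.5 on this scale. Of the H3 genes, Hist1h3e (786, 961, 803 and 262 TPM) stood above Hist1h3h (479, 571, 487 and 169 TPM) and Hist1h3b (424, 475, 426 and 160 TPM) in every library. H3.1 and H3.2, which differ in a single residue that is cysteine in H3.1 and serine in H3.2, were told apart by that codon. The 4 H3.1 genes summed to 412, 399, 329 and 338 scaled CPM and the 8 H3.2 genes to 980, 932, 732 and 787. The log2 fold change from E13.5 to E14.5 was 0.0426 (-0.00086 to 0.09) for H3.1 and 0.10 (0.08 to 0.13) for H3.2. The H3.1 interval includes 0, but both intervals overlap and cover counting error only.

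Hist1h2ap led the H2A members with 908, 928, 867 and 309 TPM. Hist1h2ak had 554, 630, 569 and 210 TPM and Hist2h2aa2 had 537, 606, 550.0 and 189 TPM. Per length, the leading H2B members were closer together. Hist1h2bn had 567, 636, 611 and 224 TPM, Hist2h2bb had 586, 669, 534 and 176 TPM, and Hist1h2bj had 463, 556, 507 and 162 TPM. Among the linker histones, which bind the DNA between nucleosomes, Hist1h1b had 493, 607, 549 and 187 TPM, Hist1h1a 393, 480.1, 448 and 159 TPM and Hist1h1c 234, 290.3, 294 and 98.2 TPM. The order of these 3 H1 genes by TPM was the same in all 4 libraries. By counts, Hist1h1d (8229, 7994, 8388 and 4242) and Hist1h1e (8901, 7312, 8169 and 4558) stood above Hist1h1b (7349, 6803, 7099 and 3530). Their models are 2977 and 1931 bases long, against 672 for Hist1h1b.

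Reads of near-identical copies limit what a single member's count means. The study describes the reads behind its long RNAs as uniquely mapped, and whether this refers to the position, the UMI or both is not stated in the sources used here. Of the 75-base windows of a member's transcripts, a median of 42.0% also occur in another gene, 28 members share at least 50% and 6 share none. The median shared part was largest for H2A (65.5%) and smallest for H1 (0.735%). All windows of Hist2h2aa2 occur in Hist2h2aa1, yet Hist2h2aa2 held 7858, 6657, 6968 and 3490 counts and Hist2h2aa1 only 15, 23, 23 and 16. Likewise 93.1% of the windows of Hist1h2ao occur in Hist1h2ap, and Hist1h2ao held 256, 202, 183 and 112 counts against 7919, 6079, 6553 and 3406 for Hist1h2ap. The split between such copies is uncertain in all libraries. Hist1h1e and Hist1h2be overlap by 388 bases on the same strand, so reads there cannot be given to either gene.

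Summed over all members, the scaled level was 7036, 6536, 5398 and 5865 CPM from the first to the last time point. The level was highest at E11.5, lowest at E13.5 and lay between E13.5 and E12.5 at E14.5. Log2 fold changes of the sum were -0.11 (95% interval -0.11 to -0.10) from E11.5 to E12.5, -0.28 (-0.29 to -0.27) from E12.5 to E13.5 and 0.12 (0.11 to 0.13) from E13.5 to E14.5. E14.5 against E12.5, both without mesonephros, gave -0.16 (-0.17 to -0.15). None of these reached 2-fold, and neighbouring comparisons share a library. Under scaling by total counts the sums changed by 0.05, -0.25, -0.94 and -1.19, so the direction at E12.5 and E14.5 against the previous day turned, with the median of all features shifting by 0.16, 0.03, -1.07 and -1.04. Relative to the median of all features, the members' median was -0.11, -0.27, 0.14 and -0.12 in the 4 comparisons under both scalings. A change of library total shifts all features alike, so this difference could not depend on the scaling.

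**Figure D2:**
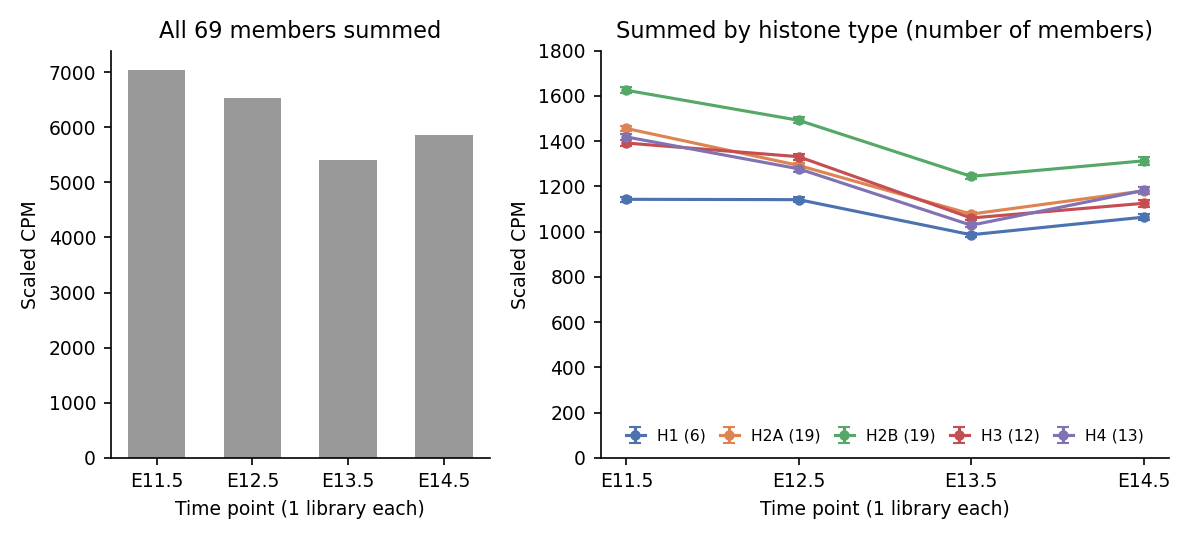
Summed scaled CPM at each time point, for all 69 members (bars from 0) and by histone type (points, 1 library each, with 95% Poisson intervals for counting error). All 5 types are lowest at E13.5, and H2B is the highest and H1 the lowest type in all 4 libraries.

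By type, H2B members summed to 1625, 1492, 1245 and 1313 scaled CPM, H2A members to 1456, 1293, 1078 and 1180, and H3 members to 1392, 1332, 1061 and 1125. H4 members summed to 1419, 1278, 1028 and 1182 scaled CPM. H1 members, at 1143, 1142, 986 and 1064, were nearly level between the first time points. From E11.5 to E12.5 the log2 fold change of the H1 sum was -0.00 (-0.02 to 0.02), against -0.17 (-0.19 to -0.15) for H2A and -0.15 (-0.17 to -0.13) for H4. H2B gave -0.12 (-0.14 to -0.11) and H3, the closest to H1, -0.06 (-0.08 to -0.05). The H1 interval overlaps none of the others, but all cover counting error only, and the difference between types was not tested. The share of H1 in all member counts was 16.2%, 17.5%, 18.3% and 18.1%, a count share that is not corrected for length. H2A held 19.8% to 20.7%, H2B 22.4% to 23.1%, H3 19.2% to 20.4% and H4 19.1% to 20.2% of the member counts.

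By cluster, the members on chromosome 13 summed to 5899, 5535, 4597 and 5016 scaled CPM and those on chromosome 3 to 966, 873, 685 and 720. The 3 members on chromosome 11 summed to 113, 79.5, 75.3 and 76.6 scaled CPM, a log2 fold change of -0.50 (-0.58 to -0.43) from E11.5 to E12.5, against -0.09 (-0.10 to -0.08) on chromosome 13 and -0.15 (-0.17 to -0.12) on chromosome 3. Hist3h2ba lies in that cluster and went from 24.7 to 7.95 scaled CPM at that step.

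From E11.5 to E12.5, across sex determination, 2 of 69 members were past 2-fold up and 1 was past 2-fold down. Of all 20226 features that passed the filter, 9.75% were past 2-fold up and 9.78% down. The members' median log2 fold change was -0.12 against -0.00 for all features, and 62 of 69 members lay within 0.5 of 0. Features with at least 100 counts in every library lay within that range in 80.7% of cases. The 3 members past 2-fold were Hist1h2aa and Hist1h1t, which were higher at E12.5, and Hist3h2ba, which was lower. edgeR's exact test at a preset BCV, the assumed spread between replicates, called all 3 at 0.1 and none at 0.4.

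Hist1h1t, the linker histone of spermatocytes, had 39, 126, 153 and 77 counts over the 4 time points. Its scaled level was 1.14 CPM at E11.5 and 4.02, 3.86 and 4.09 CPM afterwards, a step between the first time points and similar levels after it, although under total counts E14.5 against E13.5 gave a log2 fold change of -0.98. The log2 fold change from E11.5 to E12.5 was 1.82 (1.29 to 2.38). No window of its transcript occurs in another gene. Its promoter is shown as 120 bases before the RefSeq start (GRCm38.p6, chr13:23695691-23695810, plus strand) since it carries CCAAT and AAACACA, both in capitals, as 5 of the 6 H1 promoters carry AAACACA.
Hist1h1t: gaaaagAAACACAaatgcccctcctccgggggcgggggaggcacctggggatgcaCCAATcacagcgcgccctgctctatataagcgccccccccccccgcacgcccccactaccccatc
Beside this rise 4 of the 5 germ cell markers were past 2-fold up, with Ddx4, an RNA helicase of germ cells, at 97, 1726, 2960 and 1176 counts. Nanos3, also on that list, went the other way at -0.50 (-0.99 to -0.01), from 91 to 59 counts. The part of germ cells in the rise of Hist1h1t was not tested. At its highest, Hist1h1t made up 0.392% of the H1 counts, so that the H1 sum rests on the other members.

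Hist1h2aa and Hist1h2ba encode the testis variants of H2A and H2B and lie head to head on chromosome 13. Hist1h2aa had 8, 28, 43 and 56 counts, or 0.234, 0.894, 1.09 and 2.97 scaled CPM. Hist1h2ba had 84, 110, 132 and 149 counts, or 2.45, 3.51, 3.33 and 7.91 scaled CPM. Both were lowest at E11.5 and highest at E14.5. For Hist1h2aa the log2 fold change was 1.92 (0.76 to 3.28) from E11.5 to E12.5, from 8 counts in the earlier library, and 0.28 (-0.44 to 1.02) from E12.5 to E13.5. For Hist1h2ba the same steps gave 0.52 (0.09 to 0.94) and -0.07 (-0.45 to 0.30). No window of Hist1h2aa occurs in another gene. Of the windows of Hist1h2ba 33.2% do, all of them in Hist1h2bj, which held 3920, 3532, 3716 and 1738 counts. The split of reads between Hist1h2ba and Hist1h2bj is uncertain.

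From E13.5 to E14.5 these 2 genes were the members past 2-fold up, and 0 of 69 were past 2-fold down. Of all features 7.51% were past 2-fold up and 3.72% down. The log2 fold change was 1.45 (0.85 to 2.06) for Hist1h2aa and 1.25 (0.90 to 1.60) for Hist1h2ba. E14.5 against E12.5 again gave 2 members up, the same genes, at 1.73 (1.05 to 2.44) and 1.17 (0.81 to 1.54), and 0 down, beside 9.92% of all features up and 4.69% down. Under total counts the E14.5 to E13.5 values were 0.39 for Hist1h2aa and 0.18 for Hist1h2ba, and neither passed 2-fold. By the ratio of the deposited TPM they were -0.17 and -0.37. Against E12.5 the values were 0.70 and 0.14 under total counts and 0.25 and -0.31 by TPM, again with neither past 2-fold. edgeR's exact test called both genes in both comparisons at a BCV of 0.1 and neither at 0.4. From E13.5 to E14.5, summed germ cell markers went from 328 to 269 scaled CPM, and ribosomal RNA from 8.72% to 48.9% of counts. The markers did not move alike. Ddx4 gave -0.26, Dazl -0.36 and Pou5f1 -0.37, whereas Dnd1 gave 0.37 (0.17 to 0.57) and Nanos3 0.70 (0.21 to 1.19). The part of germ cells or of ribosomal RNA in the rise was not tested.

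**Figure D3:**
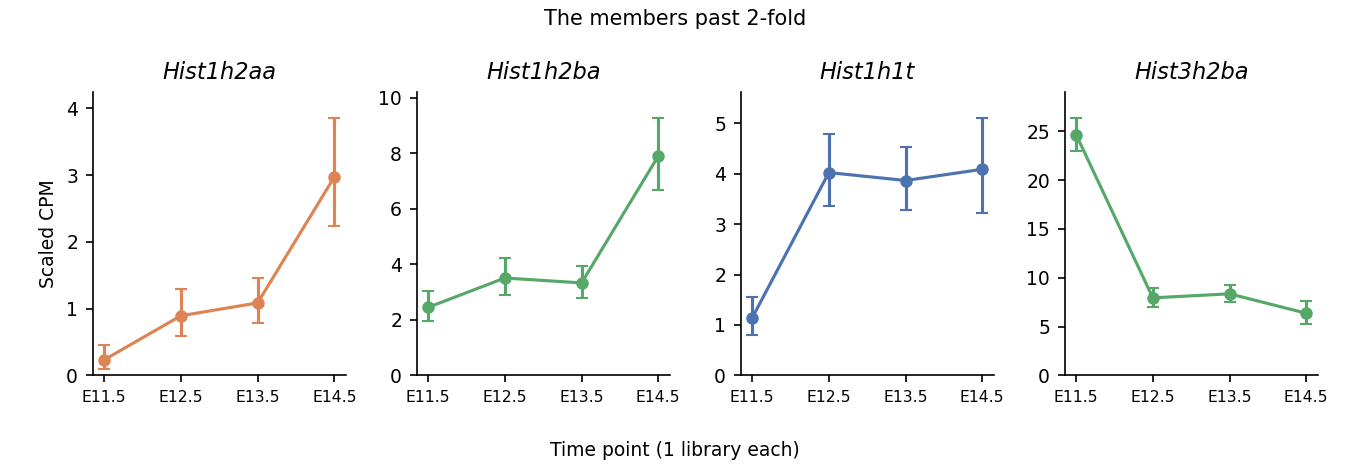
Scaled CPM of the 4 members past 2-fold in any comparison, by time point, with 95% Poisson intervals for counting error and each axis starting at 0. Hist1h2aa and Hist1h2ba are highest at E14.5, Hist1h1t steps up at E12.5 and Hist3h2ba is highest at E11.5 at 24.7 CPM.

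The stretch between Hist1h2ba and Hist1h2aa is shown because both genes start from it, on opposite strands. The RefSeq starts lie 281 bases apart, and the 250 bases before the start of Hist1h2aa (GRCm38.p6, chr13:23934187-23934436, plus strand) hold the matches listed next, in capitals.
Hist1h2aa: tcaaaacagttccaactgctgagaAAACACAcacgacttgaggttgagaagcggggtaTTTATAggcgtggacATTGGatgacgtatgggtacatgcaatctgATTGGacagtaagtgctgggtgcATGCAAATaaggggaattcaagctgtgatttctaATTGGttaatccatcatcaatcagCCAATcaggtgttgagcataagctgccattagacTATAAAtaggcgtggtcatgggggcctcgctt
Read from left to right these are the H1-type motif, a TATA box on the minus strand towards Hist1h2ba, CCAAT at 2 places on the minus strand, the octamer on the minus strand, CCAAT once on each strand, and the TATA box of Hist1h2aa, which begins 32 bases before its start. The stretch thus holds 1 TATAAA match towards each gene and a single octamer between them. The match towards Hist1h2ba lies 89 bases or more before its RefSeq start, and whether it acts was not tested. In the other 12 head-to-head H2A and H2B pairs both genes lay under 2-fold in every comparison.

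Hist3h2ba, an H2B gene of the chromosome 11 cluster, had 845 counts in the E11.5 library and 249, 331 and 120 in the later ones. The scaled level was 24.7 CPM at E11.5 and 7.95, 8.36 and 6.37 CPM afterwards. The log2 fold change from E11.5 to E12.5 was -1.63 (-1.84 to -1.43), while the later steps gave 0.07 (-0.17 to 0.32) and -0.39 (-0.71 to -0.09). Of its windows 13.9% occur in another gene, the neighbouring pseudogene Hist3h2bb-ps. Beside this fall, 4 of the 6 mesonephros markers were past 2-fold down, with Pax2, a transcription factor of the nephric duct, at 1531, 60, 73 and 36 counts. Lhx1, also on that list, went the other way at 0.64 (0.39 to 0.91). The removal of the mesonephros and the day of development cannot be told apart in this comparison. The other members of the cluster, Hist3h2a and Hist3h2bb-ps, had log2 fold changes of -0.28 (-0.36 to -0.19) and -0.46 (-0.70 to -0.22) at this step.

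At E13.5 against E12.5, 0 of 69 members were past 2-fold in either direction, beside 4.11% of all features up and 2.89% down. Members shifted down together by a small amount. Their median was -0.27, 66 of 69 lay below 0, and the lowest and highest values were -0.48 and 0.28. Of all features 50.5% lay above 0. Features with models of at most 1000 bases, a length that suits histone mRNAs, had a median of -0.10 over 2752 features. Hist1h4d gave -0.37 (-0.42 to -0.32) and Hist1h3e -0.39 (-0.44 to -0.34), whereas Hist1h1c gave -0.11 (-0.16 to -0.07).

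**Figure D4:**
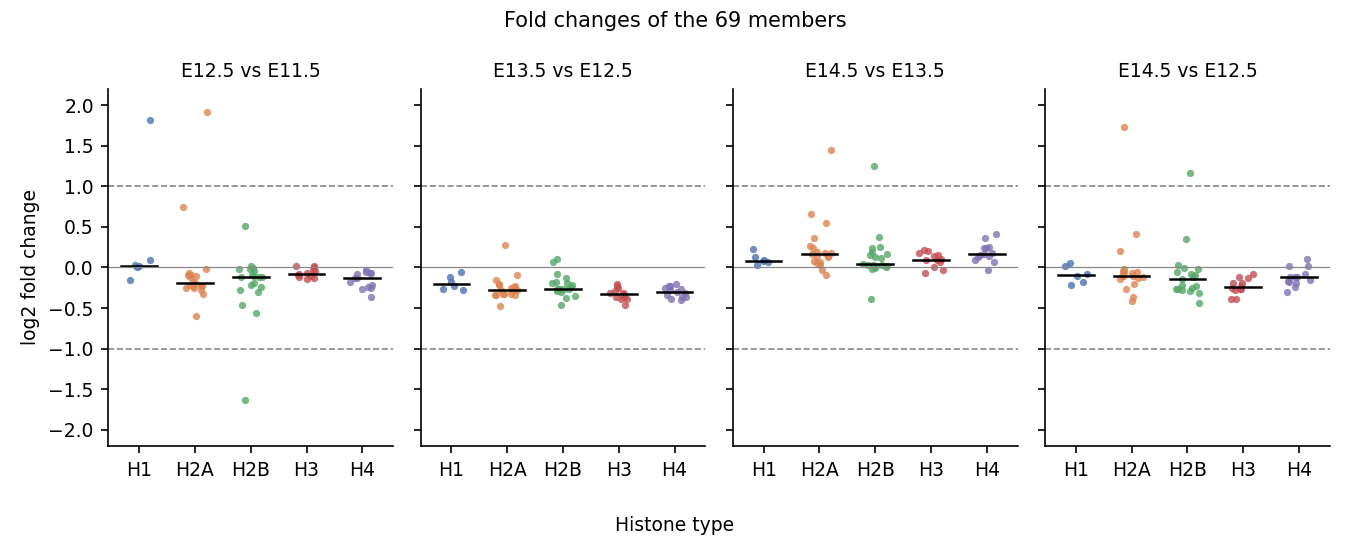
Log2 fold change of scaled counts for each of the 69 members (points, spread sideways at random), by histone type and comparison, with a black bar at the median of the type and dashed lines at 2-fold. Most points sit within 0.5 of 0, and 4 members cross a dashed line in at least 1 panel.

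From E13.5 to E14.5 the members' median was 0.13 and 61 of 69 lay above 0, beside 48.4% of all features. From E12.5 to E14.5 it was -0.12 and 58 of 69 lay below 0, where 49.2% of all features lay above 0. Features with models of at most 1000 bases had medians of 0.07 and 0.03 in these comparisons. Hist1h2ai, which was named after its values were seen, had 1801, 1090, 1159 and 873 counts, or 52.6, 34.8, 29.3 and 46.3 scaled CPM. It gave -0.60 (-0.71 to -0.49) at E12.5 and 0.66 (0.53 to 0.79) at E14.5 against the previous day, short of 2-fold both times. Its head-to-head partner Hist1h2bl gave -0.12 (-0.21 to -0.03) and 0.01 (-0.10 to 0.12). Of the windows of Hist1h2ai 89.3% occur in another gene, and of those of Hist1h2bl 73.3%. The split of reads between such copies is uncertain for both genes.

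The 7 members known to give polyadenylated mRNA in differentiated cells summed to 647, 605, 532 and 562 scaled CPM. Hist1h1c was the steadiest of the abundant ones, at 237, 241, 223 and 229 scaled CPM. Hist1h2be had 184, 171, 140 and 141 scaled CPM and Hist1h2bc had 77.9, 71.5, 59.2 and 65.8. Hist3h2a (77.1, 63.6, 59.7 and 62.8) and Hist4h4 (58.4, 49.0, 40.9 and 52.5) were highest at E11.5. Hist2h2be, with 409, 253, 343 and 194 counts, gave -0.56 (-0.80 to -0.33) from E11.5 to E12.5 and 0.35 (0.07 to 0.63) from E12.5 to E14.5. Hist2h2aa1 had at most 23 counts, and its interval reached from -0.26 to 1.79 at the first step. None of the 7 was past 2-fold in any comparison, and their sum gave -0.10, -0.19, 0.08 and -0.11 in the 4 comparisons beside -0.11, -0.28, 0.12 and -0.16 for all members.

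Genes that act on histone mRNA, histones or S phase were set beside the members. Of the 15 genes for histone mRNA processing and transcription, 1 was past 2-fold up from E13.5 to E14.5 and from E12.5 to E14.5, and none in the other comparisons or downwards. That gene was Lsm11, a protein of the U7 snRNP, with 902, 560, 731 and 968 counts and a log2 fold change of 1.48 (1.34 to 1.62) from E13.5 to E14.5, or 0.42 under total counts. Slbp, the stem-loop binding protein, had 1732, 1792, 2320 and 965 counts, or 50.6, 57.2, 58.6 and 51.2 scaled CPM. Lsm10, the partner of Lsm11 in the U7 ring, had 191, 202, 254 and 124 counts and gave 0.04 at the step where Lsm11 rose.

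The 16 histone chaperones, which carry histones to DNA, had no gene past 2-fold in any comparison, and their medians were -0.04, -0.13, -0.13 and -0.25. Rbbp7 and Nap1l1, the most abundant of them per length, had 119, 164, 177 and 58.0 TPM and 126, 118, 122 and 36.0 TPM. In scaled CPM, Rbbp7 had 175, 199, 195 and 196 and Nap1l1 355, 273, 259 and 234. The 30 S phase genes also had none past 2-fold, with medians of 0.00, -0.11, -0.12 and -0.28. Pcna, the clamp of the replication fork, had 136, 150, 153 and 49.7 TPM, and Mcm6, a subunit of the replicative helicase, 91.9, 128, 130 and 35.1 TPM. In scaled CPM, Pcna had 110.9, 100.5, 93.5 and 93.3 and Mcm6 173, 197, 183 and 152. From E13.5 to E14.5 the S phase median was -0.12 and that of the members 0.13, and the difference was not tested. Under total counts these medians were -1.18 and -0.93.

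Replication-independent variants, most of which are made from polyadenylated mRNA and also outside S phase, had 11 of 12 genes past the filter and none past 2-fold. H2afx, which is in this list, is known to give a stem-loop mRNA as well. Their medians were -0.40, -0.11, 0.08 and -0.06. H3f3b and H3f3a, both encoding H3.3, had 225, 273, 332 and 114 TPM and 293, 266, 271 and 91.3 TPM. Both lay below Hist1h3e (786, 961, 803 and 262 TPM) per length in every library. In scaled CPM, H3f3b had 343, 341, 379 and 401 and H3f3a 204, 152, 141 and 146.

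The 11 other RNAs without poly(A) tails had a median of 0.72 from E13.5 to E14.5, where 5 of 11 were past 2-fold up and the lowest was at 0.35. Under total counts this median was -0.34 and none of the 5 stayed past 2-fold, their values lying between 0.0575 and 0.92. The 5 were the Y RNA genes Rny1 at 1.98 (1.92 to 2.05) and Rny3 at 1.64 (1.61 to 1.67), the minor spliceosome RNAs Rnu11 at 1.65 (1.57 to 1.74) and Rnu12 at 1.41 (1.37 to 1.46), and Rnu73b at 1.12 (0.68 to 1.55). At E12.5 against E11.5, 1 of 11 was past 2-fold down, Rny1 at -1.22 (-1.28 to -1.16). The signal recognition particle RNA Rn7s2 gave 0.45 and the 7SK RNA Rn7sk 0.48 from E13.5 to E14.5, both above the members' median of 0.13.

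**Figure D5:**
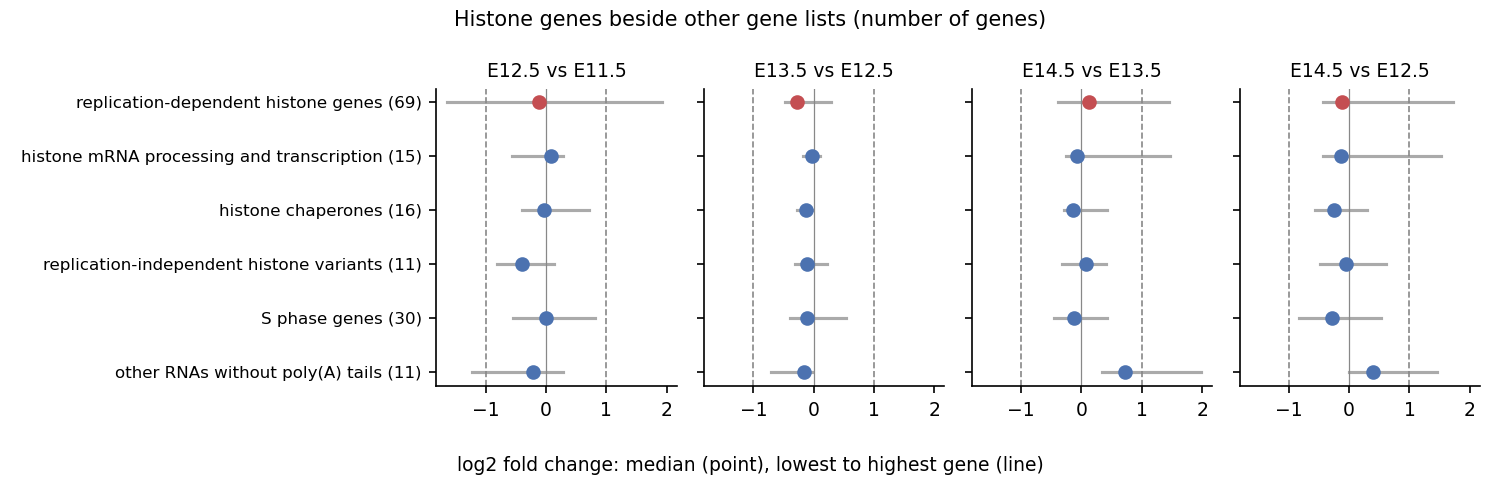
Median log2 fold change (points) and the range from the lowest to the highest gene (lines) of the replication-dependent histone genes and 5 other lists in the 4 comparisons, with dashed lines at 2-fold and the number of genes tested in brackets. At E14.5 against E13.5 the other RNAs without poly(A) tails have a median of 0.72 and the histone genes of 0.13.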

How the data were processed

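Total RNA of 4 pools of mouse gonads was sequenced, 1 library per time point. The deposited counts are reads per gene that the authors, per the study's methods and the labels, obtained after ribosomal RNA removal, stranded library preparation with UMIs, alignment to mm10 and UMI deduplication. The authors also deposited TPM and RPKM, which divide these counts by model length. TPM recomputed from counts and lengths equalled the deposited ones, and the RPKM were not used. The study describes the reads behind its long RNAs as uniquely mapped, and whether this means the position, the UMI or both is not given in the sources used here.

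Features with at least 10 counts in 1 or more libraries (20226 of 40999) were scaled by TMM over the 4 libraries with edgeR 4.0.16 in R 4.3.3. Log2 fold changes used a prior count of 0.125, and the call was a fold of at least 2, with no test. Sums and named members carry a 95% interval (exact Clopper-Pearson) made from the later library's part of both libraries' counts. No member was at or below 3 counts. The fold rule was tested on simulated data. Further steps used Python 3.11.15 with scipy 1.17.1, pandas 2.3.3, numpy 2.4.6 and matplotlib 3.10.9. Stem-loops came from GENCODE M21 transcripts and promoters from RefSeq.

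The members and gene lists were chosen with earlier results of these data known. Named are the 3 members with the highest mean TPM of each type, members past 2-fold with at least 50 counts (at most 6 per direction and comparison), the testis variants, the members known for polyadenylated mRNA, and of each gene list those past 2-fold or else the 2 most abundant. Hist1h2ai, Hist1h2bl, Hist3h2bb-ps, Hist1h2ao, Hist1h1d, Hist1h1e, Lsm10, Slbp, Rn7s2, Rn7sk, Pax2, Lhx1, Ddx4 and Nanos3 were picked beyond this rule, once their values had been seen. Alternatives were DESeq2 1.42.0 size factors, total counts with and without ribosomal RNA and the leading genes, pairwise TMM, TPM ratios, other filters, a prior count of 2 and edgeR's exact test at a preset biological coefficient of variation (BCV).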

Additional observations from a re-analysis of the deposited data

How the results depend on the processing

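With 1 library per time point no paired or left-out-replicate fit could be made, and depth limits mainly Hist1h2aa, Hist1h1t and Hist2h2aa1, whose intervals are wide. Values are given for E12.5, E13.5 and E14.5 against the previous day and then for E14.5 versus E12.5. Of the 164 alternative values of counts, medians and sums, 127 stayed close to those reported and 37 moved. Of the 943 for single members, 784 stayed close, 156 moved and 3 reversed. Total counts gave a median of 0.0432, -0.25, -0.93 and -1.16 and a sum of 0.0543, -0.25, -0.94 and -1.19 (log2), with 0 members past 2-fold up in the last 2 comparisons and 19 and 62 down. The ratio of the deposited TPM gave medians of 0.17, -0.14, -1.49 and -1.61 and sums of 0.17, -0.15, -1.49 and -1.64, with 0 up and 66 and 67 down in the last 2 comparisons. It also reversed Hist1h2ba to -0.37 and Hist1h2aa to -0.17 at E14.5 versus E13.5, and Hist1h2ba to -0.31 at E14.5 versus E12.5. Both settings shift all features at E14.5 by their construction, since ribosomal RNA took 48.9% of that library. Total counts without ribosomal RNA and the 10 leading genes moved the sum to -0.26, 0.0786 and -0.18 in the last 3 comparisons, and pairwise TMM to 0.14 at E14.5 versus E13.5. At least 10 counts in both libraries left 1 member up at E12.5 versus E11.5, since Hist1h2aa had 8 counts at E11.5. edgeR's exact test at a BCV of 0.4 called 0 members up and 0 down in every comparison, and at 0.1 it called as many as the fold rule. DESeq2 size factors, no filter and a prior count of 2 moved none of the values. Of 2 alternatives chosen after seeing the data, leaving out Hist1h1t, Hist1h2aa, Hist1h2ba and Hist3h2ba gave 0 members past 2-fold in every comparison and direction, and the 42 members sharing under 50% of their windows with another member gave a sum of -0.0848 at E12.5 versus E11.5.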
